A study of Homo sapiens with 10 samples.

Results

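The comparison described here is that of HaCaT keratinocytes that received LBP before irradiation with HaCaT cells that received vehicle before the same irradiation. It rests on 6 of the 10 RNA sequencing libraries of the study, 3 labelled irradiated LBP and 3 labelled irradiated vehicle, chosen by those labels. LBP stands for a polysaccharide-glycoprotein taken from Lycium barbarum, whose fruit is the goji berry. Cells of both groups carried the genotype label WT, had LBP or vehicle for 24 h, were exposed to 12 Gy and were harvested 3 h later. The other 4 libraries, 2 with vehicle and 2 with LBP, came from cells that were not irradiated, and they entered the same statistical model. HaCaT is a spontaneously immortalised human keratinocyte line, so all libraries come from 1 line, whose tissue the labels give as mucosa. The libraries of a group are labelled as repeats of the experiment. Nothing says that these were separate cultures. The p-values therefore measure how these samples varied, which may be technical.

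Keratinocytes are the epithelial cells of the epidermis. Those of its basal layer divide, and their descendants differentiate into the cornified barrier. Exposure to reactive chemicals activates NRF2, a transcription factor of genes for glutathione, thioredoxin, iron storage and detoxification, and aromatic compounds activate the aryl hydrocarbon receptor (AhR), which induces CYP1 enzymes. Shortage of amino acids or other stresses act through ATF4, low oxygen acts through HIF, and microbial products and cytokines act through NF-kB. Genes of these programmes and of keratinocyte identity, adhesion, growth signals and DNA damage were followed here in gene lists. Some lists share genes, so their counts are not independent. NQO1 is in the NRF2 and AhR lists, and SLC7A5 in those of AhR, ATF4 and amino acid transporters. SLC7A11 is in the lists of NRF2, glutathione, ATF4 and amino acid transporters, and SESN2 in those of ATF4, thioredoxin and p53.

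The count table held 22003 features, of which 14799 had enough counts to be tested, and the 6 irradiated libraries held from 31830506 to 54318209 counts. Keratinocyte markers were abundant, with KRT5 at 2759 to 3411 CPM (counts scaled to the library total) and KRT6A at 1657 to 2068 CPM. The fibroblast gene DCN, the endothelial gene PECAM1 and the melanocyte gene TYR had no counts in any of the 6 libraries. Other markers of these cell types had low counts. The fibroblast gene COL1A1 had 3.999 to 5.74 CPM, the endothelial gene CDH5 1.41 to 2.75 and the melanocyte gene PMEL 0.656 to 1.09. The leukocyte gene CD14 had 0.657 to 1.55 CPM. Keratins of simple epithelia were also abundant, with KRT8 at 2781 to 3617 CPM. On the leading principal component (30.1% of variance) the 3 LBP libraries lay apart from the 3 vehicle libraries. The next component (22.3%) set LBP replicate 2 at 33.4 and LBP replicate 3 at -31.3, and the other 4 libraries between -7.47 and 6.22. In bulk libraries, a change in the number of cells of a kind and a change in RNA per cell cannot be told apart.

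With LBP, 413 features rose and 232 fell in irradiated cells, by edgeR's quasi-likelihood test at an adjusted p under 0.05. The 645 calls are 4.36% of the features tested, 2.79% higher and 1.57% lower. Most changes were small. Of the genes that rose, 14 did so by at least 4-fold, 62 by at least 2-fold, 100 by 1.5 to 2-fold and 251 by less than 1.5-fold. Of those that fell, 15 did so by at least 2-fold and 186 by less than 1.5-fold. Calls of at least 2-fold in either direction made up 0.52% of tested features. Together the genes that rose took 3.32%, 3.33% and 3.43% of counts (summed CPM, not corrected for gene length) in the vehicle libraries and 5.24%, 4.63% and 5.09% in the LBP libraries. The genes that fell took 1.85% to 1.88% with vehicle and 1.44% to 1.5% with LBP. These shares were computed over genes chosen by the same difference, so they give its size and no further support. Groups did not overlap for 644 of the 645 calls, and for 27.5% of all tested features.

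**Figure D1:**
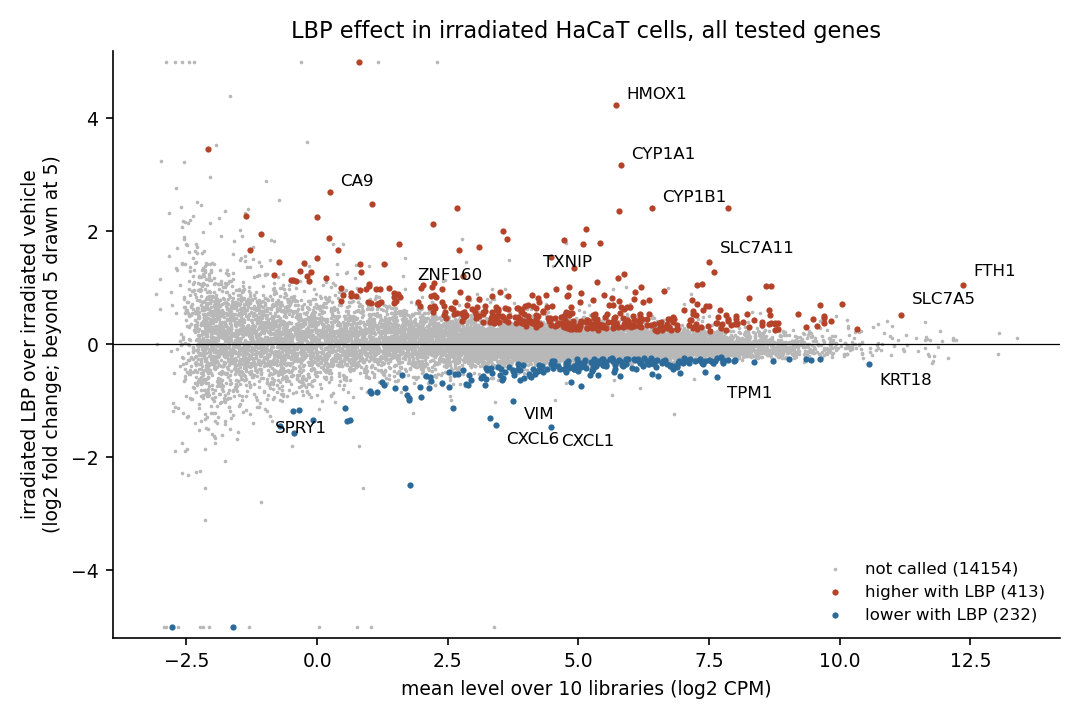
Each point is 1 of 14799 tested genes, with its mean level over the 10 libraries in log2 CPM on the horizontal axis and the log2 fold change of irradiated LBP over irradiated vehicle on the vertical axis. The 413 genes higher with LBP reach larger fold changes than the 232 lower ones, and fold changes beyond 5 in size are drawn at 5.

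The number of calls depended on the libraries. Leaving out irradiated vehicle replicate 1, 2 or 3 gave 195, 176 and 223 calls, and leaving out irradiated LBP replicate 1, 2 or 3 gave 393, 722 and 420. No called gene changed sign in these 6 fits, and 134 calls, 100 higher and 34 lower, were kept in all 6. Those 134 are named held calls below. Calls of long genes were mostly higher and calls of short genes more often lower. Of the 1097 genes with the longest exons 51 rose and 11 fell, and of the 1097 with the shortest 19 rose and 31 fell. The difference between these sets ran from -0.17 (irradiated vehicle replicate 3) to 0.12 (irradiated LBP replicate 1) on the log2 scale by library. With a fitted length trend taken out of each library, an alternative chosen after seeing the data, there were 696 calls, among them 578 of the 645.

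HMOX1 and CYP1A1 were among the genes with the highest fold changes. HMOX1, which encodes the haem-degrading enzyme haem oxygenase, had 4.27, 4.17 and 6.16 CPM in the vehicle libraries and 113, 74.95 and 88.7 CPM in the LBP libraries. The lowest LBP library was thus far above the highest vehicle library. CYP1A1, the standard AhR-induced cytochrome P450, had 8.18, 12.0 and 12.3 CPM with vehicle and 107, 84.0 and 103 CPM with LBP, a log2 fold change of 3.18 ± 0.15 (SE, adjusted p = 5.1e-07). Of the 14 tested AhR target genes 8 rose and none fell, with a median log2 fold change of 0.57 against 0.0051 over all tested features. They were CYP1A1, CYP1B1, ALDH3A1, NQO1, UGT1A6, SLC7A5, FLG and TIPARP. TIPARP, an ADP-ribosyltransferase that limits AhR activity, had 119 CPM in LBP replicate 2 against 174 and 199 in the other two, and its call was lost in 5 of the 6 fits that left out 1 irradiated library. CYP4F11, which hydroxylates fatty acids and vitamin K, rose 3.66-fold, from 5.57 ± 0.59 to 20.4 ± 1.8 CPM (SD, n = 3). CYP27B1, the enzyme that makes active vitamin D, was the 1 of 26 cytochrome P450 genes that fell, by 0.39 on the log2 scale, while 5 rose. The call of CYP27B1 was lost without any 1 of the vehicle libraries or LBP replicate 1. AKR1C1, AKR1C2, AKR1C3, CYP4F3, CYP4F11 and UGT1A6 have close paralogs or share exons with neighbours, and how their reads were divided is uncertain.

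Of the 35 tested NRF2 targets 25 rose and none fell, and all 35 had positive values (median 0.61). Of 22 genes of the glutathione system 9 rose, among them GCLC and GCLM, the 2 subunits of the enzyme that makes its precursor. GCLM had 114, 119 and 119 CPM with vehicle and 215, 179 and 186 with LBP. The glutathione peroxidase gene GPX2 rose (0.51 ± 0.08, adjusted p = 0.0070), while GPX1 fell. Of the glutathione-degrading pair CHAC1 and CHAC2, CHAC1 was among the 9 that rose and CHAC2 fell. GPX2 was a held call, and GPX1, CHAC1 and CHAC2 were not. The selenoprotein reductase gene TXNRD1 had 236, 261 and 255 CPM with vehicle and 676, 413 and 454 with LBP, and SRXN1, which repairs peroxiredoxins, changed by 0.82 ± 0.10 (adjusted p = 0.00095). Together with SESN2 they were the 3 of 22 thioredoxin and peroxiredoxin genes that rose. Of 11 glutathione transferases 0 passed by edgeR, 3 at an unadjusted p under 0.05, and 1, a fall, by DESeq2; the median was 0.06, and GSTP1 stood at 602 to 747 CPM with vehicle and 681 to 740 with LBP. Of 18 genes in the list of efflux transporters ABCC3, ABCB6, ABCA2, ABCG2 and ABCC1 rose and none fell (median 0.30). The count was 3 without any 1 of the vehicle libraries or LBP replicate 1, and 7 without LBP replicate 2.

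Ferritin, the iron store, rose in both of its chains. FTH1, its heavy chain, had 3015, 3355 and 3508 CPM with vehicle and 7479, 6042 and 7015 CPM with LBP (1.06 ± 0.09, adjusted p = 4.5e-05), with no overlap between the groups. FTL, its light chain, changed by 0.72 ± 0.08 (adjusted p = 0.00031). Both have processed pseudogenes that could share reads. Of 26 iron and haem genes HMOX1, FTH1, FTL, the haem transporter gene SLC48A1 and FECH, of the last step of haem synthesis, rose and none fell. The transferrin receptor gene TFRC, which iron excess lowers, stood at 907 to 1109 CPM with vehicle and 1206 to 1374 with LBP and missed the threshold (adjusted p = 0.065). Of 22 zinc transporter and metallothionein genes 2 rose and 1 fell (median -0.01). The zinc exporter SLC30A1 had 48.1, 51.2 and 54.3 CPM with vehicle and 115, 93.0 and 101 with LBP (1.01 ± 0.10, adjusted p = 0.00024). The zinc transporter genes SLC39A9, which rose, and SLC39A8, which fell by 0.43 on the log2 scale, lost their calls in all 6 fits. The metallothionein genes MT2A (-0.06 ± 0.08) and MT1X (-0.01 ± 0.12) differed by less than their SE. In the pathways that make NADPH 4 of 19 genes tested rose, PGD, ME1 and TKT among them, and 2 were called without any 1 of the vehicle libraries. SLC20A1, a phosphate importer, rose 1.60-fold, from 141 ± 3.4 to 225 ± 14 CPM, and was a held call.

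The promoters of GCLM, SLC30A1 and CYP1A1 show the motifs that are usually tied to these programmes. Each line gives the 200 bases just before the RefSeq start, 5′ to 3′ on the gene's strand, in GRCh38.p14, where all 3 genes lie on the minus strand. GCLM lies at chr1:93909431-93909630, SLC30A1 at chr1:211579162-211579361 and CYP1A1 at chr15:74725529-74725728. Capitals mark the antioxidant response element (ARE, searched as TGACNNNGC on both strands) in GCLM and SLC30A1, the metal response element (MRE, TGCNCNC) in SLC30A1 and the xenobiotic response element bound by AhR (XRE, GCGTG) in CYP1A1. Only the elements named for a gene were marked in it. XRE letters, as GCGTG or its reverse CACGC, also occur in lower case in GCLM and SLC30A1, and MRE letters in CYP1A1.
GCLM: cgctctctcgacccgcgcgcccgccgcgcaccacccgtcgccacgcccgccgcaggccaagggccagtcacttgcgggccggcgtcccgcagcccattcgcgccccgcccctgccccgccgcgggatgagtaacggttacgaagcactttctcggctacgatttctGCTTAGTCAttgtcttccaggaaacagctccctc
SLC30A1: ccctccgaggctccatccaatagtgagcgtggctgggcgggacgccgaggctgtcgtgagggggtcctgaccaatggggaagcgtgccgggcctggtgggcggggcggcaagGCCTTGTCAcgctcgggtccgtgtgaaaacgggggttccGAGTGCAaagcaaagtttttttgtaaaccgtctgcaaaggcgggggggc
CYP1A1: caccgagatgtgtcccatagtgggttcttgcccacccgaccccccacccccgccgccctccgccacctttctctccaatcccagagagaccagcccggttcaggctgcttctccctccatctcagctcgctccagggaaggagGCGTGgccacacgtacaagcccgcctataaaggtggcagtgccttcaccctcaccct
The ARE begins 34 bases before the start in GCLM and 88 bases before it in SLC30A1, and the XRE begins 57 bases before it in CYP1A1. In 300-base RefSeq windows (250 bases before to 50 after the start) of 10709 tested genes, the ARE was found in 14.4% of all 15653 windows, in 91 of 455 windows of genes that rose (20%) and in 43 of 282 windows of genes that fell (15.2%). The short XRE was in 47.7%, 49.0% and 51.4% of the same 3 sets, and the MRE in 62.3%, 60.7% and 67.7%. The AP-1 element (TGANTCA), which can overlap the ARE, was in 5.53% of all windows, 9.67% of windows of genes that rose and 5.67% of those that fell. Of the 25 NRF2 targets that rose, 18 had a window and 7 of these held an ARE, so most did not hold these letters near the start. A match is a description of the sequence and shows no binding.

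**Figure D2:**
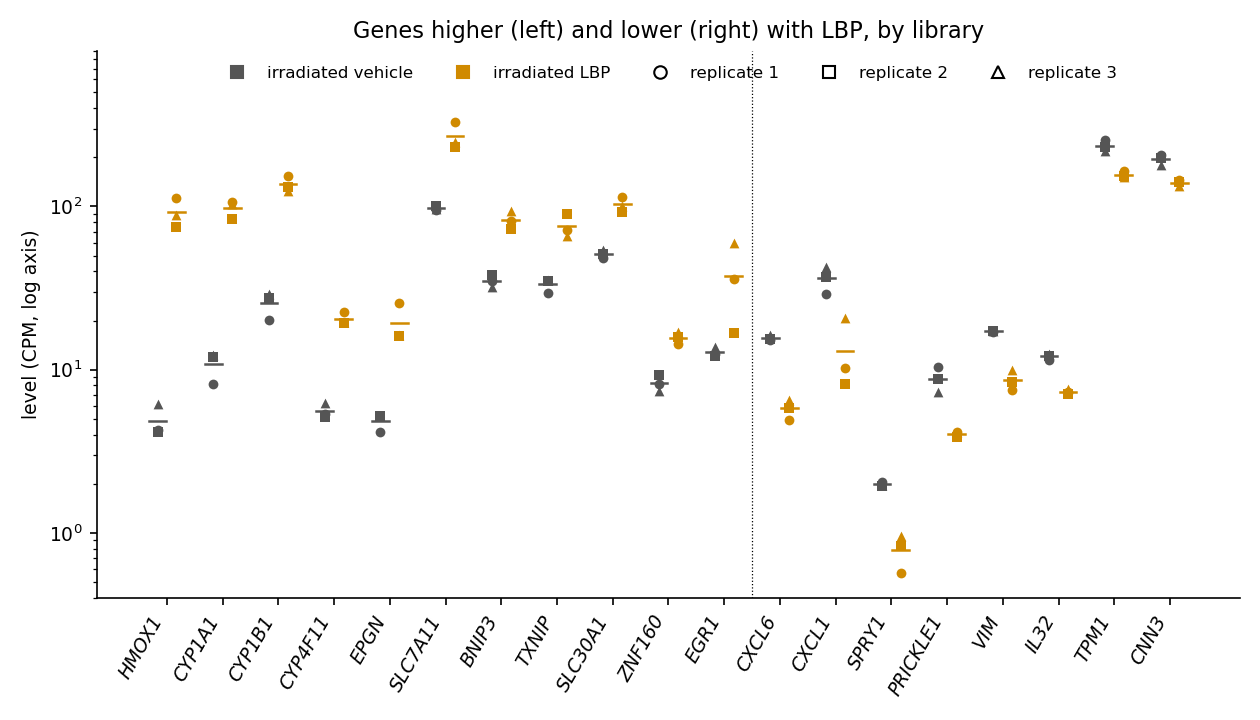
Levels in CPM on a log axis of 11 genes higher and 8 genes lower with LBP in the 6 irradiated libraries; symbols mark the replicate and short lines the group mean. For HMOX1, CYP1A1, CYP1B1 and SLC7A11 the groups lie far apart, whereas EGR1 ran from 16.7 to 59.7 CPM within the LBP group, in replicates 2 and 3.

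Of 34 tested ATF4 and amino acid response genes 14 rose, none fell and 20 were not called (median 0.48). Of 25 amino acid transporter genes 6 rose, 1 fell and 18 were not called; the one that fell was SLC1A3, a glutamate and aspartate transporter, which lost its call in all 6 fits. Without vehicle replicate 2, 3 of the transporter genes rose. SLC7A5, the large neutral amino acid transporter, had 1873, 1851 and 2071 CPM with vehicle and 2896, 2666 and 2769 with LBP, and its partner chain SLC3A2 had 585 to 639 CPM with vehicle and 915 to 1098 with LBP. CTH, which makes cysteine from cystathionine, rose from 13.8 to 15.6 CPM with vehicle to 22.5 to 31.2 with LBP. STC2, a secreted glycoprotein, changed by 0.95 ± 0.13 (adjusted p = 0.0022), and PHGDH, of serine synthesis, by 0.50 ± 0.08 (adjusted p = 0.0061). PHGDH, STC2, CTH, ASNS, SLC7A5 and SLC3A2 were held calls. SESN2 and TRIB3 rose as well, but SESN2 lost its call without vehicle replicate 2 or 3 and TRIB3 without any 1 of the vehicle libraries. ATF4 itself stood at 304 to 318 CPM with vehicle and at 388, 317 and 431 with LBP (adjusted p = 0.11). The count of ATF4 and amino acid genes that rose became 10, 7 or 8 when vehicle replicate 1, 2 or 3 was left out, and 14, 21 or 12 for LBP replicate 1, 2 or 3. Of 20 cytosolic aminoacyl tRNA synthetase genes WARS1, AARS1, CARS1, EPRS1 and MARS1 rose by 0.30 to 0.38. Leaving out vehicle replicate 1, 2 or 3 gave 1, 0 or 2 of them, and leaving out LBP replicate 1 gave 2. Of 26 genes of the unfolded protein response of the endoplasmic reticulum 1 was called, 3.85% against 4.36% of all tested features. It was XBP1, which rose (0.37 ± 0.09, adjusted p = 0.035), a call lost in 5 of the 6 fits. The chaperone gene HSPA5 had a value of 0.17 ± 0.07.

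All 37 tested hypoxia and glycolysis genes had positive values, and 10 rose (median 0.31). BNIP3, which marks mitochondria for removal, had 34.9, 38.1 and 31.9 CPM with vehicle and 82.0, 72.6 and 94.0 with LBP. ALDOC, an aldolase, had 24.4 to 28.5 CPM with vehicle and 54.4 to 61.5 with LBP. BNIP3L, the kinase gene PDK1, which restrains entry of pyruvate into mitochondria, and the glucose transporter gene SLC2A1 changed by 0.56 ± 0.08, 0.50 ± 0.08 and 0.44 ± 0.07. BNIP3, ALDOC, NDRG1, CA9, BNIP3L, PDK1 and SLC2A1 were held calls. The count was 14 without LBP replicate 2 and 7 to 9 without any other single irradiated library. In the list of TXNIP and arrestin-domain genes 5 of 12 rose. TXNIP, which binds thioredoxin and limits glucose uptake, had 29.5, 34.8 and 35.7 CPM with vehicle and 71.4, 89.9 and 65.6 with LBP (1.18 ± 0.11, adjusted p = 0.00016). The gene occupies bases 145992435 to 145996600 of chromosome 1 and BNIP3 bases 131966455 to 131982013 of chromosome 10, both on the minus strand of GRCh38. ARRDC4, a close relative of TXNIP, rose from 33.3 ± 2.8 to 61.1 ± 11 CPM (SD, n = 3). The other 3 were the arrestin-domain gene ARRDC3 and MXD1 and MNT, repressors of the MAX network. They lost their calls without any 1 of the vehicle libraries, which left 2 genes called.

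**Figure D3:**
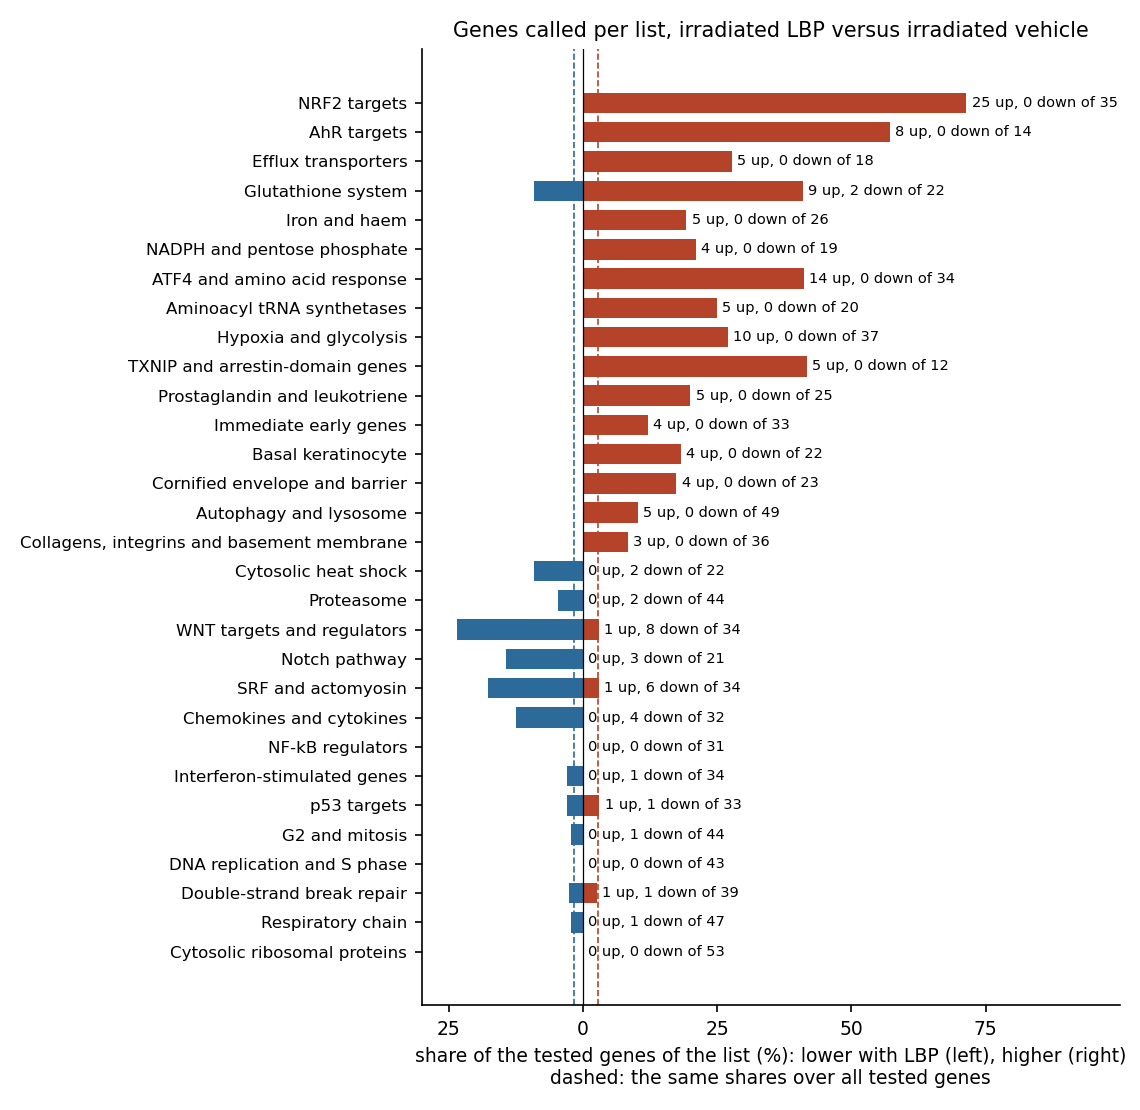
For 30 gene lists, bars give the percentage of tested genes that rose (right) and fell (left) with LBP in irradiated cells; dashed lines mark 2.79% higher and 1.57% lower over all tested genes. NRF2 targets (25 of 35 higher) and AhR targets (8 of 14) reach furthest to the right and WNT genes (8 of 34 lower) furthest to the left.

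Immediate early genes, which respond to signals within minutes, differed within the LBP group. EGR1, a zinc finger transcription factor, had 12.6, 12.2 and 13.8 CPM with vehicle and 36.2, 16.7 and 59.7 CPM with LBP. FOSB, an AP-1 subunit, had 2.97 to 4.93 CPM with vehicle and 14.0, 6.19 and 17.7 with LBP. All LBP libraries were above all vehicle libraries for both genes, with replicate 2 the lowest and replicate 3 the highest. KLF5, KLF10, FOSB and EGR1 rose, 4 of 33 genes, with a list median of 0.44. The count was 1 without any 1 of the vehicle libraries, 2 without LBP replicate 3 and 18 without LBP replicate 2. Several stress and cytokine genes that missed the threshold were highest in LBP replicate 3. DDIT3, a stress-induced C/EBP factor, had 11.2, 10.7 and 41.7 CPM with LBP against 6.60 to 8.17 with vehicle, and GDF15, a stress cytokine, had 0.820, 0.678 and 5.67 CPM against 0.624 to 0.825. IL6 had 11.2, 8.04 and 28.7 CPM with LBP against 7.03 to 8.81 with vehicle, and PTGS2, the inducible cyclooxygenase, 15.9, 6.93 and 33.9 against 7.91 to 11.9. The clock genes PER1 and NR1D1 had 26.6 and 46.0 CPM in LBP replicate 3 and at most 10.5 and 22.04 CPM in the other 5 irradiated libraries. That library also had the largest difference between the genes of highest and lowest GC content (0.19 on the log2 scale, against -0.15 to 0.11 in the other 5). The part of GC content in these values was not tested.

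Some genes of keratinocyte growth, adhesion and differentiation rose. EPGN, which encodes the EGF receptor ligand epigen, had 4.18, 5.21 and 5.17 CPM with vehicle and 25.8, 16.0 and 16.4 with LBP, a 3.995-fold rise (2.00 ± 0.17, adjusted p = 7.6e-05). The gene spans bases 74308473 to 74315307 of chromosome 4, plus strand. Its receptor gene EGFR had 750 to 826 CPM with vehicle and 978 to 1130 with LBP (0.41 ± 0.09, adjusted p = 0.028), and the ligand gene EREG had 47.2, 24.3 and 81.9 CPM with LBP against 15.8 to 22.5. SPRY1, an inhibitor of signalling by growth factor receptors, fell from 2.06, 1.95 and 1.96 CPM to 0.568, 0.832 and 0.952. SPRY1 and EPGN were held calls, whereas EGFR and EREG lost theirs in 4 and 5 of the 6 fits. Of 22 basal keratinocyte genes KLF5, TP63, EGFR and LAMB3 rose and none fell, while KRT5 and KRT14 each had a value of 0.07. This count was 1 without vehicle replicate 1, vehicle replicate 2 or LBP replicate 1, and 2 without vehicle replicate 3. Of 23 cornified envelope genes FLG, TGM1, PPL and SPRR2A rose and IVL, which encodes involucrin, stood at -0.13 ± 0.12. The count was 1 without vehicle replicate 1 or 2, and 2 without LBP replicate 1 or 3. SERPINB13, a protease inhibitor of stratified epithelium, had 114, 103 and 123 CPM with vehicle and 199, 196 and 188 with LBP and was a held call. DSG3, a desmosomal cadherin of stratified epithelium, rose (0.43 ± 0.08, adjusted p = 0.013), and CGN, of tight junctions, fell by 0.40 on the log2 scale (adjusted p = 0.023). DSG3 lost its call without vehicle replicate 2, and CGN in 5 of the 6 fits. KRT18, of simple epithelia, had 1575, 1559 and 1721 CPM with vehicle and 1239, 1218 and 1333 with LBP (adjusted p = 0.035). The call was lost without any 1 of the vehicle libraries, LBP replicate 1 or LBP replicate 2, and KRT18 also has many pseudogenes. Its partner KRT8 had a value of -0.22 ± 0.08 (adjusted p = 0.14), and the surface mucin gene MUC1 rose (0.58 ± 0.10, adjusted p = 0.0078).

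The neutrophil-attracting chemokine genes CXCL6 and CXCL1 fell. CXCL6 had 15.3, 15.4 and 16.3 CPM with vehicle and 4.94, 5.86 and 6.55 with LBP, a 2.71-fold fall. CXCL1 had 29.04, 37.0 and 42.7 CPM with vehicle and 10.3, 8.17 and 20.7 with LBP, and lost its call without vehicle replicate 2 or 3 or LBP replicate 1. IL32, a cytokine gene, had 11.5, 12.2 and 12.5 CPM with vehicle and 7.32, 7.06 and 7.59 with LBP (adjusted p = 0.0023). CXCL10, an interferon-induced chemokine, lay between 0.571 and 0.983 CPM with vehicle and between 0.231 and 0.308 with LBP, and lost its call in all 6 fits. These 4 of 32 chemokine and cytokine genes fell and none rose. The count of falls was 2 without vehicle replicate 2 or 3 or LBP replicate 1, and without LBP replicate 2 there were 3 of each direction. CXCL8 had 19.3, 36.1 and 39.8 CPM with vehicle and 22.9, 9.43 and 36.7 with LBP, so its groups overlapped. The Toll-like receptor genes TLR2 (-0.60 ± 0.09, adjusted p = 0.0042) and TLR4 (-0.77 ± 0.16, adjusted p = 0.023) fell, the latter losing its call without any 1 of the vehicle libraries. PSTPIP2, an adaptor protein gene tied to autoinflammation, had 106, 111 and 107 CPM with vehicle and 70.1, 79.7 and 70.6 with LBP. Of 31 regulators of NF-kB 0 passed by edgeR or DESeq2, and 4 had an unadjusted p under 0.05 by edgeR (median -0.03). By edgeR 1 of 34 interferon-stimulated genes passed, 2.94% against 4.36% of all tested features. It was IFIT5, which fell by 0.29 on the log2 scale and lost its call in all 6 fits.

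The promoters of CXCL1 and CXCL10 are shown because each of the 4 chemokine and cytokine genes that fell had an NF-kB element in a RefSeq window. Each line gives the 200 bases before the start with NF-kB elements in capitals, in GRCh38.p14. CXCL1 lies at chr4:73869193-73869392 on the plus strand and CXCL10 at chr4:76023498-76023697 on the minus strand.
CXCL1: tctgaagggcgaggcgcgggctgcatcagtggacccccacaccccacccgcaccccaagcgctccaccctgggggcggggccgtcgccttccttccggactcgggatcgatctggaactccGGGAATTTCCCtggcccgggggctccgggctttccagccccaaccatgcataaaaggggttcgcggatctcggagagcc
CXCL10: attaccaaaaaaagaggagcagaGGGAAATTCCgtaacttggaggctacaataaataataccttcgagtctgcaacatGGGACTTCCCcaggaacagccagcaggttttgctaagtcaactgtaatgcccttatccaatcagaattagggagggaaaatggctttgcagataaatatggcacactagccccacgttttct
In CXCL1 the run of capitals holds 2 overlapping matches, which begin 79 and 78 bases before the start. In CXCL10 the matches begin 177 and 122 bases before it. Over all tested genes 6.87% of windows held the element, against 7.45% of windows of genes that fell and 5.93% of those of genes that rose. Of 24 genes of the chemokine list with a window 12 held it, CXCL2 and CXCL3 among them, so the motif was not limited to those that fell.

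Some genes of the contractile cytoskeleton and VIM fell. TPM1, a tropomyosin, had 255, 232 and 218 CPM with vehicle and 164, 154 and 151 with LBP (-0.59 ± 0.07, adjusted p = 0.0010). CNN3, a calponin, had 180 to 208 CPM with vehicle and 133 to 145 with LBP. VIM, the vimentin filament gene, had 16.98, 17.4 and 17.3 CPM with vehicle and 7.48, 8.35 and 9.997 with LBP. TPM1, CNN3, MYL9, FILIP1L, NEXN and TAGLN2 fell, 6 of 34 genes of actomyosin and of its regulator SRF (median -0.14). Among the other actin genes CFL2, which severs actin filaments, fell from 42.6 to 43.1 CPM to 27.1 to 31.2, and NUAK1, a kinase that acts on myosin phosphatase, from 39.5 to 43.0 CPM to 20.6 to 31.0. TPM1, CNN3, MYL9, FILIP1L, VIM, CFL2 and NUAK1 were held calls. TAGLN stood at -0.19 ± 0.14 and the smooth muscle actin gene ACTA2 at 0.36 ± 0.14, neither past the threshold. COL1A1, a collagen gene of fibroblasts, stood at 3.999 to 4.69 CPM with vehicle and 5.01 to 5.74 with LBP (adjusted p = 0.26). TPM1 spans bases 63042632 to 63071915 of chromosome 15, plus strand.

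Of 34 WNT targets and regulators 8 fell and 1 rose. PRICKLE1, of planar cell polarity, had 10.4, 8.82 and 7.26 CPM with vehicle and 4.12, 3.85 and 4.13 with LBP (-1.12 ± 0.15, adjusted p = 0.0016). DACT1, an inhibitor of WNT signalling, SP5, a transcription factor induced by WNT, LGR4, a receptor for R-spondins, the ligand genes WNT5B, WNT7A and WNT4 and the receptor gene FZD2 also fell, and CELSR1, another planar polarity gene, rose from 91.3 to 97.7 CPM to 127 to 133. PRICKLE1 was a held call. The falls numbered 1, 2 or 1 when vehicle replicate 1, 2 or 3 was left out, and 3, 4 or 4 for LBP replicate 1, 2 or 3. In the Notch pathway the ligand gene DLL1, the coactivator gene MAML2 and LFNG, which glycosylates the receptors, fell, of 21 tested, and the target gene HES1 had 21.5 to 39.7 CPM with LBP against 21.3 to 23.4. This count was 0 without vehicle replicate 1 or 2, but 1 without vehicle replicate 3, LBP replicate 1 or LBP replicate 3. The transcription factor gene SOX4 fell from 38.0 to 42.6 CPM to 21.7 to 30.7, and BMP4, a ligand of the BMP pathway, by 0.49 on the log2 scale, the first losing its call without vehicle replicate 1 and the second in 5 of the 6 fits.

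Of 22 cytosolic heat shock genes 3 had positive values (median -0.17), and HSPE1, the mitochondrial chaperonin partner, and CHORDC1, a cochaperone of HSP90, fell. HSPE1 had 176, 186 and 177 CPM with vehicle and 140, 143 and 140 with LBP, and both were held calls. Of 44 proteasome genes 3 had positive values (median -0.13), against 51.1% of all features. Genes of the respiratory chain (10 of 47 positive, median -0.09) and of cytosolic ribosomal proteins (6 of 53, median -0.09) leaned the same way. Of the proteasome genes PSMA2 and PSMD13 fell, 4.55% called against 4.36% of all tested features. Neither call was kept without vehicle replicate 1 or 2 or LBP replicate 1 or 3. The proteasome genes took 10190 ± 211 CPM in sum with vehicle and 9283 ± 171 with LBP. In lysosomes and autophagy CTSD, SQSTM1, CTSL, PSAP and NPC1 rose and none fell, of 49 genes, 32 of them with positive values. CTSD, the protease cathepsin D, had 743, 660 and 723 CPM with vehicle and 967, 922 and 1129 with LBP. The number was 3 or fewer without vehicle replicate 2 or 3 or without LBP replicate 1 or 3.

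Of 33 p53 targets SESN2 rose and CCNG1 fell, 6.06% called against 4.36% of all tested features (median 0.03). CDKN1A, the p21 inhibitor of the cell cycle, had 136, 140 and 159 CPM with vehicle and 225, 126 and 244 with LBP, and its groups overlapped (0.46 ± 0.18, adjusted p = 0.18). MDM2, a target that also degrades p53, stood at 0.11 ± 0.07. Without LBP replicate 2, 7 of the p53 targets rose. Of 39 double-strand break repair genes 5.13% were called: the nuclease gene DCLRE1C rose (0.37 ± 0.09) and the end-joining gene XRCC4 fell (-0.44 ± 0.09), and BRCA1 and ATM stood at 0.17 and 0.15. The call of DCLRE1C was lost in all 6 fits and that of XRCC4 without vehicle replicate 2 or 3 or LBP replicate 1. BIK, which encodes a BH3-only death protein, fell (adjusted p = 0.046) and lost its call in 5 of 6 fits, and 2 of 31 apoptosis regulators (6.45%) were called in all. Of 44 genes of G2 and mitosis PTTG1, which encodes securin, fell, a call lost in 5 of the 6 fits. That is 2.27% called, against 4.36% of all tested features. Of 43 genes of DNA replication 0 passed by edgeR, 11 at an unadjusted p under 0.05, and 1 by DESeq2. Their median was -0.12, with PCNA, the sliding clamp of replication, at -0.21 ± 0.08.

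Many zinc finger genes of the ZNF family rose by small amounts. Of 448 tested, 35 rose and 1 fell, so that 7.81% rose against 2.79% of all tested features. The 1 that fell was ZNF703. They had positive values in 75.7%, against 51.1% of all features, with a median of 0.18. Most proteins of this family bind DNA with C2H2 fingers, and many carry a KRAB domain that recruits repressors. ZNF160 had 8.21, 9.29 and 7.43 CPM with vehicle and 14.3, 15.9 and 16.9 with LBP (0.92 ± 0.12, adjusted p = 0.0016). ZNF766, ZNF845, ZNF551, ZNF557 and ZNF616 changed by 0.60 to 0.75, and these 6 genes, the first by p, were held calls. On chromosome 19 22 of 216 ZNF genes rose (median 0.27), and on other chromosomes 13 of 230 (median 0.12). Genes of chromosome 19 outside the family had a median of 0.01, with 16 higher and 6 lower of 752. The count of ZNF genes that rose became 15, 15 or 12 when vehicle replicate 1, 2 or 3 was left out, and 17, 39 or 22 for LBP replicate 1, 2 or 3. The median lay between 0.14 and 0.23 in these fits.

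In 1 block on chromosome 19, from ZNF614 to ZNF331 (52012765 to 53580269 in GRCh38), all 28 tested ZNF genes had positive values and 9 rose. This block was chosen after its values were seen. Its summed level was 203, 218 and 176 CPM in the vehicle libraries and 299, 262 and 265 CPM in the LBP libraries. The lowest LBP library was above the highest vehicle library. In non-irradiated cells 25 of the 28 were positive with LBP, with a median of 0.24 against 0.45 in irradiated cells. Without irradiation 72.2% of all tested ZNF genes of chromosome 19 were positive (median 0.15). The share was 64.2% for genes of that chromosome outside the family and 63.4% for all tested ZNF genes. Genes of the block are close paralogs, and how their reads were divided is uncertain, although a sum over the block depends on it less. Exons of ZNF genes had a median GC content of 43.3%, against 48.5% for all tested genes, and a median length of 5224 bases against 5046. With a GC or a length trend removed, alternatives chosen after seeing the data, 51 and 38 ZNF genes rose, with medians of 0.20 and 0.18.

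**Figure D4:**
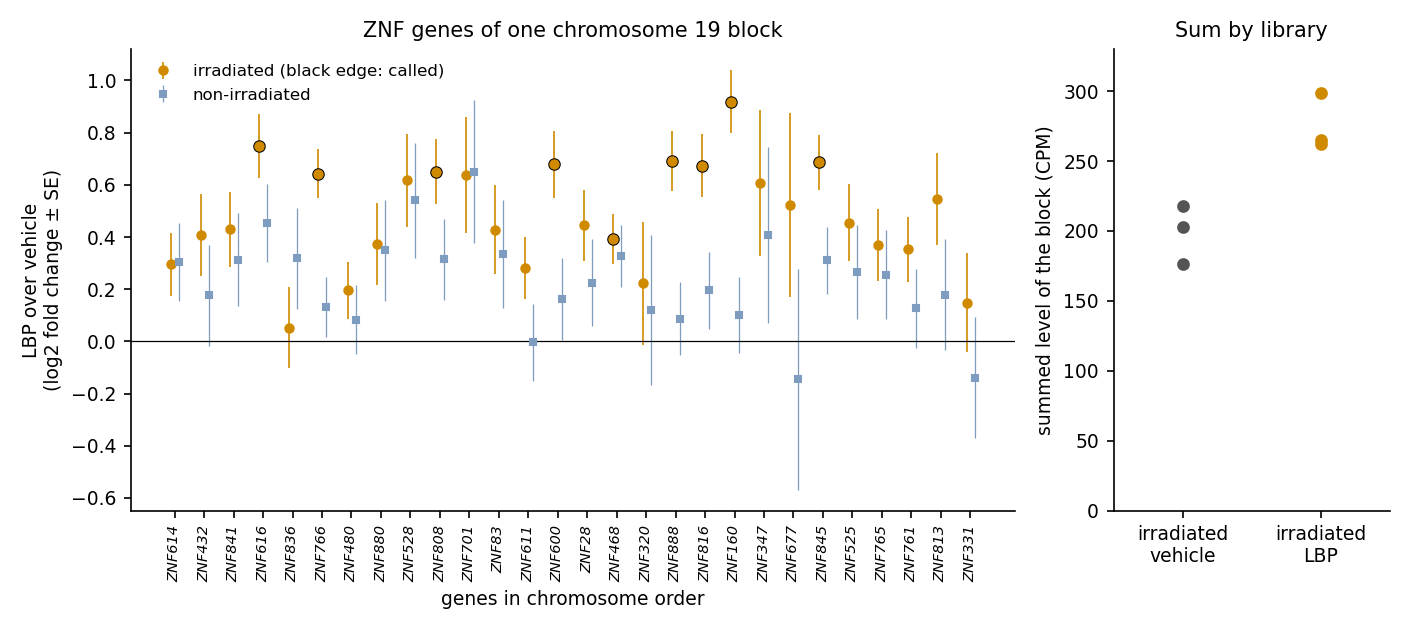
On the left, log2 fold change ± SE of LBP over vehicle for 28 ZNF genes of the chromosome 19 block in their order, in irradiated (n = 3 against 3) and non-irradiated cells (n = 2 against 2); black edges mark the 9 genes that rose in irradiated cells. On the right, the summed level of the block in each irradiated library, 176 to 218 CPM with vehicle and 262 to 299 CPM with LBP.

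The same treatment without irradiation, 2 LBP against 2 vehicle libraries, shares no library with the irradiated comparison. Both comparisons share 1 estimate of spread from the same fit, so their calls are not independent. Without irradiation there were 119 calls (0.804% of features), 80 higher (0.541%) and 39 lower (0.264%). Of these, 91 were also called in the same direction in irradiated cells, which is 76.5% of the non-irradiated and 14.1% of the irradiated calls. Of the genes that rose in irradiated cells 91.8% had a positive value in non-irradiated cells, and of those that fell 82.8% had a negative one, where 61.3% of all tested features had the same sign in both. The median log2 fold change of the 413 genes that rose was 0.50 in irradiated and 0.29 in non-irradiated cells. As these genes were chosen in the first comparison, the smaller value in the second is not a test of a difference. NRF2 targets rose in 22 of 35 cases without irradiation (median 0.64) and in 25 with it (median 0.61). BNIP3 changed by 1.35 without irradiation and 1.25 with it, SLC30A1 by 1.02 and 1.01, CXCL6 by -1.35 and -1.44, VIM by -0.95 and -0.999 and PRICKLE1 by -0.96 and -1.12. For these 5 genes both comparisons passed the threshold.

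The difference between the LBP effects was tested directly as an interaction, and 2 of 14799 features (0.0135%) passed by edgeR. PDE8B, a phosphodiesterase, had no counts in the 2 non-irradiated LBP libraries and 0.862 to 1.47 CPM in the other 8 libraries (adjusted p = 0.0044). AC008982.1 overlaps HNRNPL and ECH1 on the same strand. It had no counts in the irradiated LBP and the non-irradiated vehicle libraries and 0.421 to 0.719 CPM in the other 5 (adjusted p = 0.0061). With 3 counts as the limit that a count of 0 allows, levels of up to 0.0478 to 0.0925 CPM, by library, could have been missed, by counting error alone. Of deposited counts from 1 to 10, 59.7% were even, so a fragment may not always be 1 count, and this limit rests on the counts as they stand. DESeq2 passed RPL32 and RPL35 instead, 2 ribosomal protein genes. RPL32 was lower with LBP in irradiated cells (338 to 369 against 389 to 425 CPM) and higher in non-irradiated cells (420 and 474 against 338 and 367). At an unadjusted p under 0.05 there were 1213 features (8.20%). Among genes called in irradiated cells, ZNF160 had an interaction of 0.82 ± 0.19 (adjusted p = 0.57) and UBR4, a large ubiquitin ligase, one of 0.48 ± 0.11 (adjusted p = 0.57). UBR4 had 227 to 241 CPM with vehicle and 283 to 322 with LBP after irradiation, and 255 to 284 and 238 to 256 without it. The call of UBR4 was lost without any 1 of the irradiated vehicle libraries. AC008982.1 was called in both comparisons and in opposite directions. Thus no gene called in irradiated cells and not called in non-irradiated cells was shown to differ between them.

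**Figure D5:**
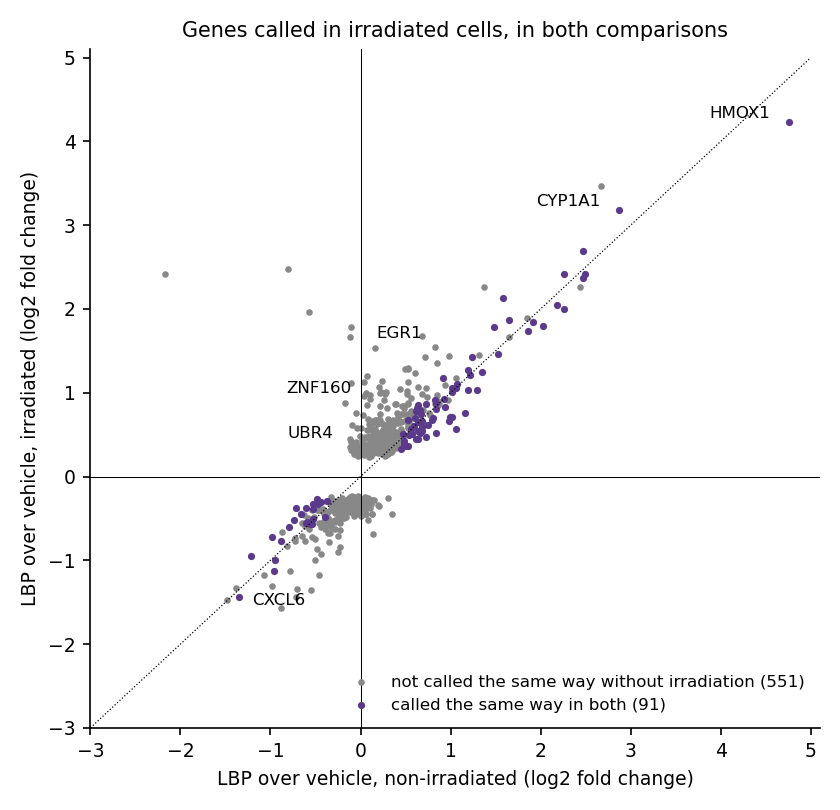
For 642 of the 645 genes called in irradiated cells, the log2 fold change of LBP over vehicle in non-irradiated cells (horizontal) and in irradiated cells (vertical); the dotted line marks equal effects, and 3 features with a value beyond 5 in size are left out. The 91 genes called the same way in both lie along the line, and most of the others have the same sign with a smaller value in non-irradiated cells.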

How the data were processed

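The authors deposited a table of raw read counts per gene and a table of FPKM values (fragments scaled to gene length and library size) for the same 22003 features and 10 libraries. Reads were aligned with HISAT2 to GRCh38, per the submitters' processing notes. Which tool counted the reads, with which strand setting and annotation, was not given in the sources used here, so reads of a gene and its antisense partner cannot be told apart. Of the deposited columns 0 belonged to no sample. Totals of the 6 irradiated libraries ran from 31830506 to 54318209 counts.

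The tests on counts used edgeR 4.0.16 (R 4.3.3). Features had to pass filterByExpr (minimum count 10), libraries were scaled by TMM, and a quasi-likelihood model with 1 mean for each of the 4 groups was fitted to all 10 libraries, which share 1 estimate of spread (residual df 6, prior df 6.06). Contrasts were LBP against vehicle in irradiated cells, the same in non-irradiated cells, and their difference. Adjusted p-values are Benjamini-Hochberg over all 14799 tested features, with a threshold of 0.05. Values written as a ± b with no other mark are log2 fold changes ± SE, and CPM are TMM-scaled. The deposited FPKM values entered limma 3.58.1 as an alternative, on log2(FPKM + 1). Other alternatives were DESeq2 1.42.0, limma-voom, other scalings and filters, the 6 irradiated libraries alone, a replicate block and leaving out each library. Removal of a length or GC trend was chosen after seeing the data. The fits were tested on simulated counts.

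Named genes were those called with a mean log2 CPM of at least 1 and groups without overlap: the 20 largest fold changes, the 15 smallest p and the 15 largest CPM differences in each direction. To these came up to 6 called members of each of 55 gene lists and 30 symbol families, defining markers whether called or not, and the 10 smallest interaction p in each direction. A few list members outside this rule were named after their values were seen, and some genes that meet it are not reported here. The comparison, its lists and the rule were chosen with earlier results of these data known. Gene positions are from GENCODE v29 (GRCh38), which matched 89.3% of tested features, and promoter windows from RefSeq (GRCh38.p14), which matched 10709. A motif search gave the share of windows with a match on either strand. Pairs of replicate libraries differed by more than sampling noise (chi-square per degree of freedom 10.7 to 36.8), so none was taken for a duplicate.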

Additional observations from a re-analysis of the deposited data

Results flagged for a closer look

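The effect of LBP differed between irradiated and non-irradiated cells for 2 features by the interaction test (edgeR, Benjamini-Hochberg). PDE8B had 0.974 and 0.875 CPM in the non-irradiated vehicle libraries, no counts in the 2 non-irradiated LBP libraries, 0.909, 1.27 and 0.862 CPM in irradiated vehicle and 1.28, 1.39 and 1.47 CPM in irradiated LBP (adjusted p = 0.0044). AC008982.1 had no counts with vehicle and 0.522 and 0.421 CPM with LBP without irradiation, and 0.540, 0.719 and 0.605 CPM with vehicle and no counts with LBP after irradiation (adjusted p = 0.0061). Levels of both were low, and AC008982.1 overlaps HNRNPL and ECH1, so the assignment of its reads is uncertain.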

How the results depend on the processing

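None of the 645 calls was called in the opposite direction in any of the settings tried, and 82 of the 645 calls (61 higher, 21 lower) were kept in each of the 23 other settings in which they could be tested. The 645 calls (413 higher, 232 lower) became 409 (266, 143) with the 6 irradiated libraries alone, 1232 (708, 524) with DESeq2, 388 (241, 147) with limma on log2(FPKM + 1), 379 (235, 144) with a pseudocount of 0.1 and 149 (97, 52) with FPKM and no filter. Leaving out 1 library gave 176 to 722 calls (126 to 493 higher, 50 to 229 lower). With the GC trend removed 364 genes fell. DESeq2 called 631 of the 645. The 2 features with an interaction became 7 with no filter on low counts, 1 with a filter of 1 CPM in 3 libraries, 0 with FPKM and a pseudocount of 1, 8 with FPKM and no filter, and 0 to 5 without 1 library. The difference in the share of counts held by genes that fell, -0.389 points in CPM, was -0.445 points in FPKM. The cause of these shifts was not tested. Fits that left libraries out also had fewer of them.

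The replicate numbers did not pair the samples: deviations of same-numbered irradiated libraries correlated at 0.03, -0.08 and 0.11. With a replicate block there were 228 calls (163 higher, 65 lower), and 1 interaction over 10 libraries. Of the 200 called genes that the rule named, 56 lost their call in none of the settings.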

Other observations

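Several genes of lipid mediators rose with LBP in irradiated cells. PTGS1, the constitutive cyclooxygenase, had 21.99, 23.3 and 22.8 CPM with vehicle and 35.6, 34.0 and 37.6 with LBP, and PTGR1, which inactivates prostaglandins and leukotrienes, had 46.9 to 47.7 and 68.6 to 81.9 CPM. Both calls were kept in each fit that left out 1 irradiated library. CYP4F11, CYP4F3, AKR1C3 and LTB4R, a leukotriene receptor gene, brought the list of prostaglandin and leukotriene genes to 5 of 25 with PTGS1, and LTB4R lost its call in 5 of those 6 fits.

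Further genes that fell were BASP1, a membrane protein gene, with 73.1 to 75.6 CPM with vehicle and 54.8 to 57.1 with LBP, and LAYN, a hyaluronan receptor gene, with 16.7 to 18.6 and 10.7 to 12.0 CPM. In non-irradiated cells the log2 fold change of each was -0.28, not past the threshold. TGM2, tissue transglutaminase, fell from 3.55 to 4.52 CPM to 2.19 to 2.47, and TLN2, a talin, from 8.17 to 9.24 CPM to 4.47 to 5.95. Both lost their calls without irradiated vehicle replicate 1.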
